A study of Mus musculus with 50 samples.

Results

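Mitochondrial ribosomal proteins were taken as all genes whose symbol begins with Mrpl or Mrps followed by a digit and whose level reached 1 TPM (an abundance corrected for transcript length and library size) in 8 or more libraries. The symbol matched 78 of the 23880 genes in the deposited tables, and all 78 passed the level criterion, 49 with large subunit symbols (Mrpl) and 29 with small subunit symbols (Mrps). All 78 were also among the 12586 genes tested for differential expression. None of the 78 dropped below 1 TPM in any library.

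The data are bulk polyA RNA-Seq profiles of gastrocnemius muscle, a calf muscle made mostly of fast fibres, from 50 male wild type C57BL/6JRj mice. The libraries came from mice of 8, 18, 22 and 24 months (n = 8 each) and of 26 and 28 months (n = 9 each), with 1 library per mouse and between 13607229 and 21267375 counts per library. All mice were caged singly and ate the purified AIN-93M diet. The diet schedule differed with age. The 8 and 18 months-old mice were switched to it at least 2 months before dissection. Mice of 22 months and older had received it since they were 18 to 19 months old. Age and diet schedule therefore cannot be told apart between these groups. Comparisons among 22 to 28 months, such as 28 against 22 months, lie within 1 schedule. There too time on the diet rises with age, and the 2 cannot be told apart. Animals with visible illness or tumors had been left out by the authors, so each group holds only mice without either.

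Mitochondria carry their own ribosome, which translates the few proteins encoded in mitochondrial DNA, all of them membrane subunits of the oxidative phosphorylation complexes. Its RNAs come from mitochondrial DNA, but every one of its proteins is encoded in the nucleus, made by cytosolic ribosomes and imported. The small subunit binds the mRNA and reads the codons, the large subunit joins the amino acids and passes the growing chain to the inner membrane, and many proteins of both subunits have no bacterial counterpart. Skeletal muscle fibres depend on this machinery for respiratory capacity.

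The labelled tissue matched its markers. The 9 skeletal muscle fibre markers together accounted for 155538 ± 7180 TPM (SD, n = 8) at 8 months and 157997 ± 18889 TPM (SD, n = 9) at 28 months, with the troponin gene Tnnt3 the most abundant. One library stood apart within its age group. In replicate 3 of the 8 months-old group, 69 of the 78 members had their highest TPM of that age group, against 13.1% of all genes tested, and the main counts, medians and sums that compare 8 months with older ages are also given without it.

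The promoter sequences of a few members are shown first, since the values below turn on these genes and the factors whose motifs were searched are described with them. RefSeq promoter windows (GRCm38.p6, 300 bases each, most of them before a transcript start) were at hand for 69 of the 78 genes, with 75 windows in all. Mrps35, Mrpl13, Mrpl38, Mrps28, Mrpl19, Mrpl54, Mrpl15, Mrps34 and Mrpl4 had no entry. The windows were searched on both strands for NRF1 (GCGCATGCG), ETS factors such as GABP (CCGGAAG), YY1 (AAGATGGC) and estrogen-related receptors (ERR, AAGGTCA), and matches to different motifs did not overlap in the windows shown. The ETS letters were found in 34.7% of the member windows, against 16.6% of the windows of all genes tested. The YY1 letters were found in 16.0% against 4.31%, the NRF1 letters in 9.33% against 3.38%, and the ERR letters in 5.33% against 3.28%. Over all 32851 windows of the table the shares were 8.86% for ETS, 2.75% for YY1, 1.75% for NRF1 and 4.72% for ERR. By subunit, 31.2% of the large and 40.7% of the small subunit windows held the ETS letters, 12.5% and 22.2% held the YY1 letters, 12.5% and 3.70% the NRF1 letters, and 4.17% and 7.41% the ERR letters, differences that rest on few windows (6 and 1 for NRF1). A match describes the letters in the window and is no evidence of binding.

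Each motif is shown in a gene described below, with its letters on either strand in capitals and the rest in lower case, read along the gene's own strand. Mrps16 (chr14:20393441-20393740, minus strand, 1 of its 2 windows) and Mrpl34 (chr8:71464676-71464975, plus strand) carry the ETS letters and were among the members with the lowest fold change of their subunits. Mrps36 and Mrpl28, also among the lowest, carry none of the motifs searched. The ETS letters were found in 40.5% of the windows of members called at 28 months and in 27.3% for those not called. The shares were 21.4% and 9.09% for YY1, 7.14% and 3.03% for ERR and 9.52% and 9.09% for NRF1. These differences were not tested and rest on few windows (9 and 3 for YY1, 3 and 1 for ERR). Mrpl42 (chr10:95501900-95502199, minus strand), the most abundant member, carries the YY1 letters close to its start. Mrpl12 (chr11:120484387-120484686, plus strand) carries the ERR letters. Mrps18b (chr17:35916391-35916690, minus strand) carries the NRF1 and ETS letters and is shown because its level was not lower at 28 months.
Mrps16: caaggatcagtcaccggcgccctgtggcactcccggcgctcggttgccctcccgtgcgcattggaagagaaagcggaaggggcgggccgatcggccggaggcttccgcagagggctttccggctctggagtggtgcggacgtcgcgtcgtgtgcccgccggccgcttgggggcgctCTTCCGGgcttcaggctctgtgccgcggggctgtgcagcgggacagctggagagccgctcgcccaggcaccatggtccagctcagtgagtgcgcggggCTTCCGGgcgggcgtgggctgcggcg
Mrpl34: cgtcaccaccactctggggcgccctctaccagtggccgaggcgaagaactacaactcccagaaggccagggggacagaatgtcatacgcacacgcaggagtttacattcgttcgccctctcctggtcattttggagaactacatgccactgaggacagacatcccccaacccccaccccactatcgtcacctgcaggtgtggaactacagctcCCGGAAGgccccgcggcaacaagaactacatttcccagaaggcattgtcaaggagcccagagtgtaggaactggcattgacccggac
Mrpl42: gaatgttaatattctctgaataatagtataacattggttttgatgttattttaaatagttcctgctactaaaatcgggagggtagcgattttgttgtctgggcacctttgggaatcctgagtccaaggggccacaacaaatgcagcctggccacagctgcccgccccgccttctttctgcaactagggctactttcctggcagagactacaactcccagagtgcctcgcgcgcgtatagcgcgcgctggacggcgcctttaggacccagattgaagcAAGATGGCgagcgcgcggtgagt
Mrpl12: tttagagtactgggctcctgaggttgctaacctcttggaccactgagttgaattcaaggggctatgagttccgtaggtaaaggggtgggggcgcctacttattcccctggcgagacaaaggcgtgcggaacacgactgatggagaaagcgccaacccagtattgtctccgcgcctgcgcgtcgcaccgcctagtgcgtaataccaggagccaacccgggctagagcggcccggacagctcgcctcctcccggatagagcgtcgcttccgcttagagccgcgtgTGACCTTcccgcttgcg
Mrps18b: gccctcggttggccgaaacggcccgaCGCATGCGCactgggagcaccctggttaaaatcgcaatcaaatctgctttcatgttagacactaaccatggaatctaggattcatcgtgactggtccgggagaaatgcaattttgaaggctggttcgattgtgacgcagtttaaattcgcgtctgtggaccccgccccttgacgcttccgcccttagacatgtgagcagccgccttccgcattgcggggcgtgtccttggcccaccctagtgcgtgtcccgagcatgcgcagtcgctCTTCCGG

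Relative to 8 months, 45 of the 78 mitochondrial ribosomal protein genes were lower at 28 months and 0 were higher (edgeR quasi-likelihood test, false discovery rate (FDR) of 0.01 over all genes tested). The members' median log2 fold change was -0.32, a level of 80.0% of that at 8 months, whereas the median of all genes tested was 0.01. Of all genes tested, 39.6% passed this test in either direction and 18.7% were lower, beside the 57.7% of members called lower. Without replicate 3 of the 8 months-old group 37 members were lower (47.4%, against 16.7% of all genes tested) and the median was -0.26. In bulk muscle, fewer cells of a type and less RNA per cell cannot be told apart. DESeq2 called 46 members lower and 0 higher. The fold change was negative for 75 of the 78 (72 without that library), and the 3 others, named after their values were seen, were Mrps18b (0.07), Mrpl9 (0.09) and Mrpl41 (0.13), none of which passed the test.

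The calls came at the oldest ages. At 18 months 0 members passed the test against 8 months (background 0.0715% of genes tested), at 22 months 0 (0.0397%) and at 24 months 0 (0.612%). DESeq2 also called 0 at each of these ages. At an unadjusted p under 0.05, edgeR gave 0 members at 18 months (1.56% of all genes were lower at that p), 13 at 22 months (16.7%, against 4.61%) and 21 at 24 months (26.9%, against 11%), all of them lower. Without replicate 3 of the 8 months-old group the counts of lower members were 0, 2 (2.56%, against 4.17%) and 6 (7.69%, against 9.29%), under the background at all 3 ages, and 1 member was higher at 18 months. At 26 months 14 members were lower (17.9%, against 8.54% of all genes tested) and 0 were higher, and all 14 were among the 45 lower at 28 months. Without replicate 3 of the 8 months-old group only 5 members were lower at 26 months (6.41%, against 6.79% of all genes tested), with no excess at this FDR. Leaving out any other library of 8 or 26 months was not tried for this comparison. At an unadjusted p under 0.05, 43 members were lower at 26 months (55.1%, against 22.1% of all genes), and 31 (39.7%, against 20.4%) without replicate 3 of the 8 months-old group. The median log2 fold change moved from -0.04 at 18 months through -0.11 at 22, -0.15 at 24 and -0.21 at 26 months to -0.32 at 28 months. Without that library it was 0.03 at 18 months, -0.04 at 22, -0.08 at 24, -0.13 at 26 and -0.26 at 28 months. The sign at 18 months thus turned, and 20 of 78 members had a negative fold change there in place of 62.

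Steps between neighbouring ages gave almost no calls for any gene, so the test says little about the members there. Between 18 and 22 months (background 0.00795%), 22 and 24 months (background 0%), 24 and 26 months (background 0%) and 26 and 28 months (background 0%), edgeR and DESeq2 both called 0 members. At an unadjusted p under 0.05, edgeR gave 2 lower members (2.56%, against 2.08% of all genes), 1 (1.28%, against 2.26%), 4 (5.13%, against 6.58%, with 1 more higher) and 13 (16.7%, against 5.12%) for these 4 steps. The members' median log2 fold changes were -0.07, -0.03, -0.07 and -0.12, with 71, 54, 58 and 74 of the 78 negative. The step from 26 to 28 months had the lowest median, as a description without a test. Comparing 28 with 22 months keeps to 1 diet schedule, though time on the diet rises with age there too. In it 19 members were lower (24.4%, against 11.5% of all genes tested) and 0 were higher, all 19 of them among the 45. Neither mean in this comparison uses the 8 months-old libraries, which enter the fit through the shared spread and scaling, and with replicate 3 of that group left out 27 members were lower (34.6%, against 12%). The count fell to 13 (8 large, 5 small) without replicate 2 of the 28 months-old group, and rose to 37 with upper-quartile scaling factors and to 40 at an FDR of 0.05. A test for any difference over the 6 ages called 40 members (51.3%, against 35.4% of all genes tested). Without replicate 3 of the 8 months-old group it called 32 (41%, against 34.5%).

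**Figure D1:**
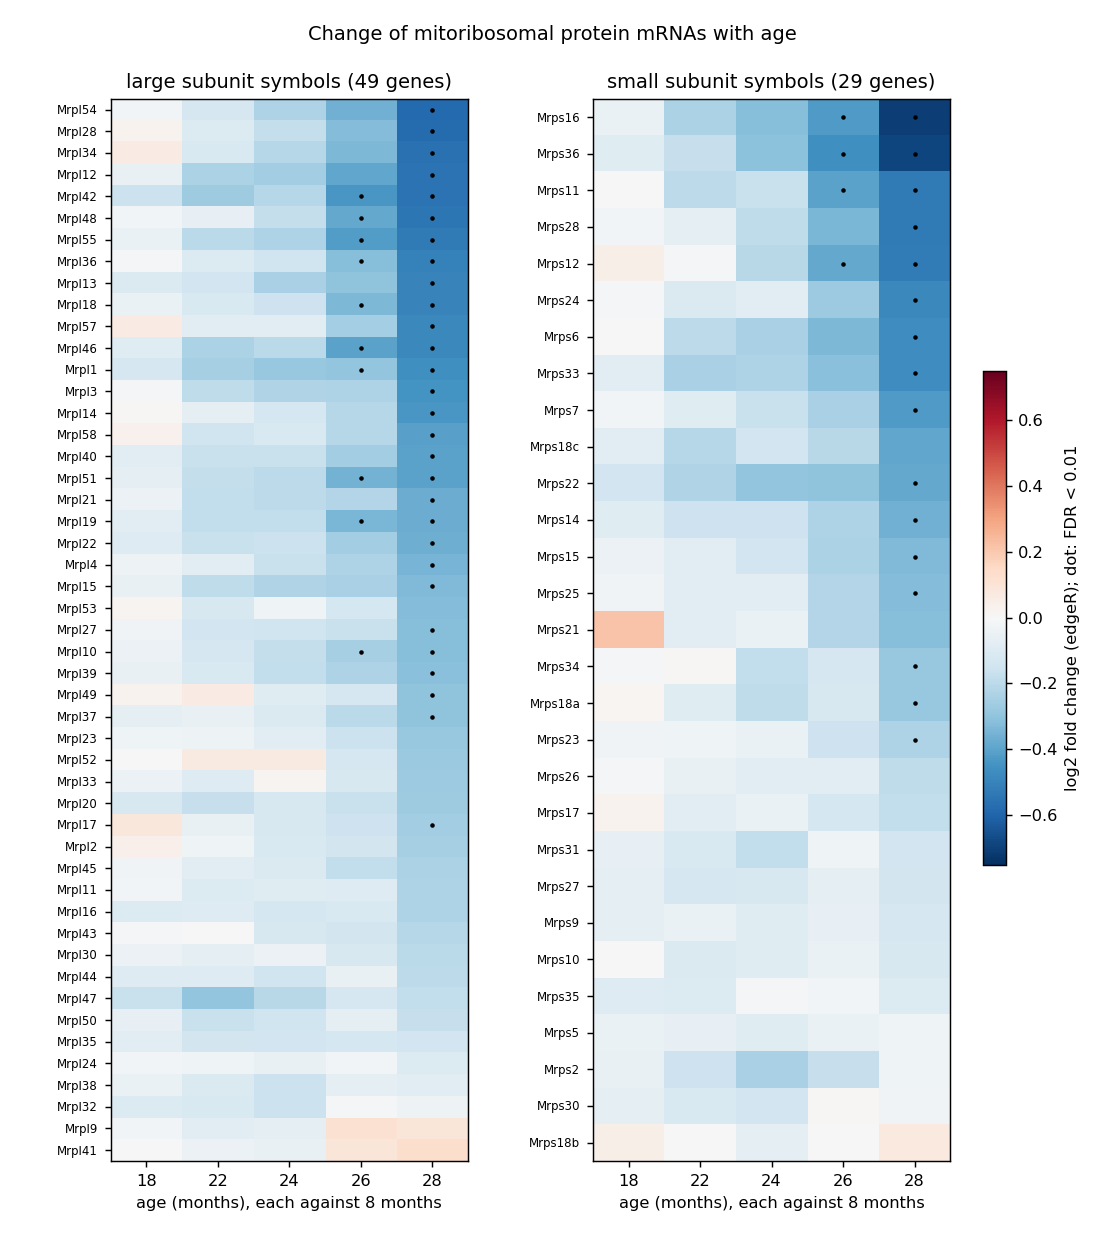
Log2 fold change of each of the 78 members (vertical axis, ordered by the change at 28 months) at 18, 22, 24, 26 and 28 months against 8 months (horizontal axis), with a colour scale in log2 units and dots for FDR under 0.01. The dots number 14 at 26 months and 45 at 28 months, and none stands in the columns of 18, 22 or 24 months; without replicate 3 of the 8 months-old group the counts are 5 and 37.

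Taking the means of the age groups, the TPM of 23 members fell at every step from 8 to 28 months (29.5%, against 5.78% of all genes tested), as a description without a test of the order. With replicate 3 of the 8 months-old group left out 11 members did so (14.1%, against 5.28%), 9 of the large and 2 of the small subunit. The lowest mean TPM was that of 28 months for 60 members (76.9%, against 24.4%), with or without that library. These shares come from the same libraries as the tests above.

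The large and the small subunit had similar values at 28 months. Of the large subunit genes 29 of 49 were lower at 28 months (59.2%), and of the small subunit genes 16 of 29 (55.2%), against 18.7% of all genes, with a median log2 fold change of -0.32 in each. With replicate 3 of the 8 months-old group left out the counts were 24 and 13 (49% and 44.8%, against 16.7%), with medians of -0.26 and -0.25. At 26 months 10 large (20.4%) and 4 small subunit genes (13.8%) were lower, against 8.54% of all genes, with medians of -0.21 and -0.21. Without that library the counts were 4 (8.16%) and 1 (3.45%), with medians of -0.13 and -0.15, near and under the 6.79% of all genes. For 28 against 22 months the counts were 12 and 7 (24.5% and 24.1%, against 11.5%), with medians of -0.21 and -0.20. The difference between the subunits was not tested.

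A score per library, the mean over the genes of a subunit of log2(TPM + 1) after subtracting each gene's mean over the 50 libraries, shows the spread between mice. The large subunit score was 0.11 ± 0.14 at 8 months, 0.08 ± 0.09 at 18, 0.03 ± 0.10 at 22, 0.01 ± 0.07 at 24 (SD, n = 8 each), -0.07 ± 0.13 at 26 and -0.13 ± 0.14 at 28 months (SD, n = 9 each). The small subunit score was 0.11 ± 0.13, 0.08 ± 0.10, 0.03 ± 0.10, -0.01 ± 0.08, -0.07 ± 0.11 and -0.12 ± 0.12 at the same ages. The groups overlapped: 7 of the 9 libraries of 28 months and 6 of the 9 of 26 months lay below all 8 months-old libraries, for each subunit, while the highest 28 months-old library reached 0.07 in both. At 28 months the large subunit score ran from -0.34 to 0.07 with a median of -0.10, and at 8 months from -0.04 to 0.38 with a median of 0.09. Without replicate 3 of the 8 months-old group, which gave the 0.38, the 8 months-old means were 0.07 ± 0.09 for the large and 0.07 ± 0.07 for the small subunit (SD, n = 7), below the 18 months-old means of 0.08. The counts of 7 and 6 libraries of 28 and 26 months rest on the lowest 8 months-old library. Leaving out replicate 3, the highest, cannot change them.

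**Figure D2:**
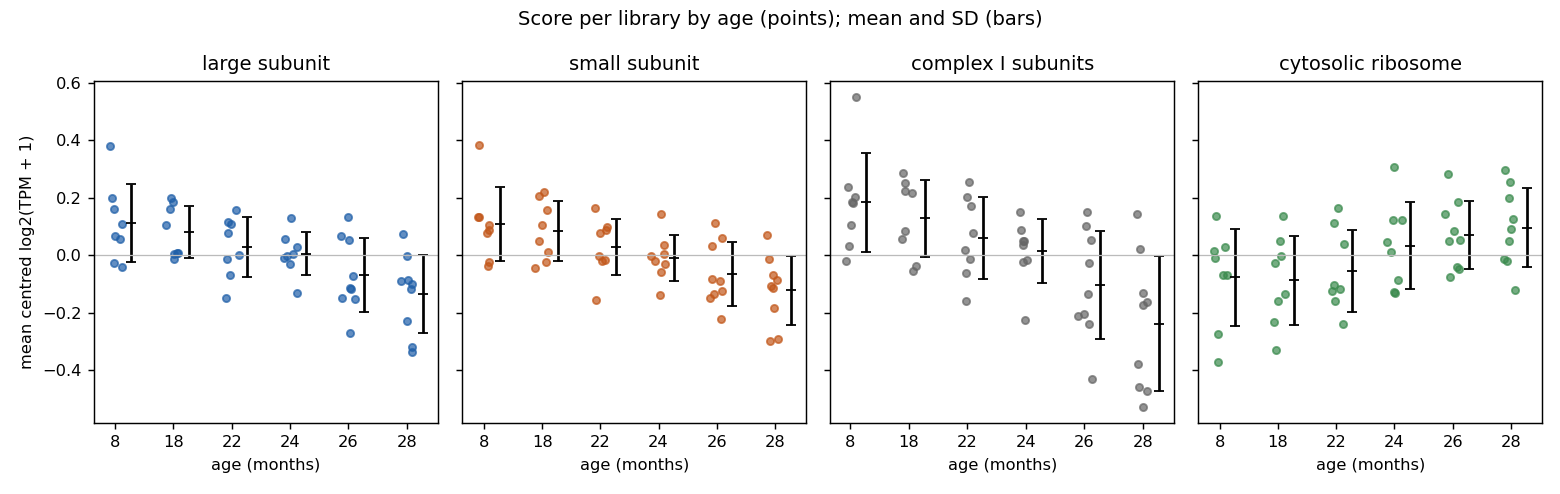
Scores per library in log2(TPM + 1) units (vertical axis) by age in months (horizontal axis) for the large subunit, the small subunit, complex I subunits and cytosolic ribosomal proteins, with each mouse as a point and the mean and SD beside it. The means of both mitoribosomal panels are 0.11 at 8 months and -0.13 and -0.12 at 28 months, and the single 8 months-old point near 0.38 is replicate 3, without which both 8 months-old means are 0.07.

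The difference between the subunit scores stayed near zero at every age, with means between -0.013 at 28 months and 0.014 at 24 months and SDs between 0.014 and 0.029. Summed over genes, the large subunit went from 3832 ± 416 TPM at 8 months to 3153 ± 294 TPM at 28 months and the small subunit from 1836 ± 176 to 1538 ± 127 TPM (SD, n = 8 and n = 9). At 18 months the sums were 3723 ± 255 and 1852 ± 175 TPM. These were lower than at 8 months for the large and higher for the small subunit, both by less than 1 SD. Without replicate 3 of the 8 months-old group both were higher than at 8 months, again by less than 1 SD. The 18 months-old small subunit sums include 2176 TPM in replicate 8, where Mrps21 reached 544 TPM, against 1973 TPM in the next library. The 18 months-old means were not computed without replicate 8, so the direction of these small differences is uncertain. The 8 months-old sums without replicate 3 were 3708 ± 245 and 1781 ± 91.1 TPM (SD, n = 7) and their ratio 2.08 ± 0.05. The ratio of these sums was 2.09 ± 0.05 at 8 months, 2.02 ± 0.08 at 18, 2.05 ± 0.04 at 22, 2.08 ± 0.03 at 24, 2.06 ± 0.03 at 26 and 2.05 ± 0.03 at 28 months, so the means of the ages differed by less than the SD of the widest group. The lowest single ratio, 1.85, was in an 18 months-old library. Across the 50 libraries the scores of the subunits had a Pearson correlation of 0.986, and 0.979 after the mean of each age was removed. This is a description only, since both scores come from the same libraries, and replicate 3 of the 8 months-old group was included.

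**Figure D3:**
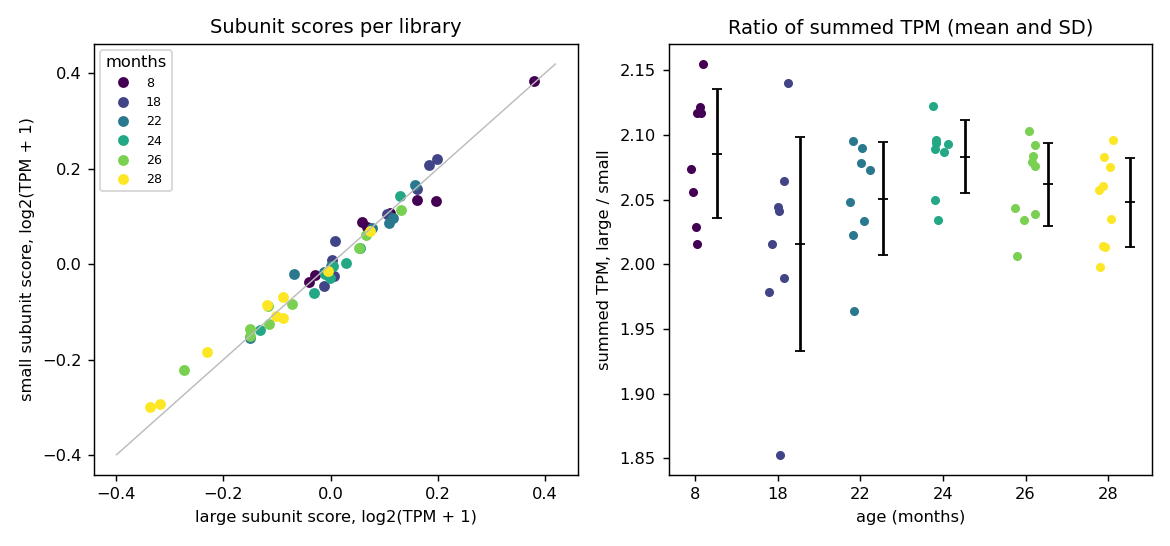
Left, small subunit score (vertical axis) against large subunit score (horizontal axis), both in log2(TPM + 1) units, for 50 libraries coloured by age, with the line of equality. Right, ratio of summed TPM of large to small subunit genes (vertical axis, not starting at 0) by age in months, points for libraries with mean and SD; the means lie between 2.02 and 2.09.

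Symbols and structures do not assign every protein to the same subunit. Mrps30 and Mrps18a carry small subunit symbols but sit in the large subunit in structures of the mammalian mitoribosome, and Mrps36 is also known as a part of the α-ketoglutarate dehydrogenase complex of the citric acid cycle. With Mrps18a and Mrps30 counted as large and Mrps36 left out, the ratio of sums was 2.52 ± 0.06 at 8 months and 2.45 ± 0.04 at 28 months (SD, n = 8 and n = 9), and 2.51 ± 0.06 at 8 months without replicate 3. All 9 libraries of 28 months then lay below the 8 months-old mean, but only 2 lay below all 8 months-old libraries. All 8 libraries of 22 months and all 8 of 24 months also lay below that mean. The lowest mean of this ratio was that of 18 months, 2.43 ± 0.10 (SD, n = 8). That mean includes replicate 8 with a ratio of 2.205, where Mrps21 reached 544 TPM, against 2.411 in the next lowest library. The median was 2.44 at both 18 and 28 months, against 2.53 at 8 months. The highest ratio at 28 months, 2.517, exceeded the 8 months-old mean without replicate 3, which was 2.511.

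Among large subunit genes the lowest fold change belonged to Mrpl54, a protein with no bacterial counterpart listed with the stalk, the flexible arm that recruits translation factors. Its level ran from 97.1 to 153 TPM with a median of 119 at 8 months and from 66.2 to 103 TPM with a median of 86 at 28 months. The ranges overlapped only slightly, and the log2 fold change was -0.58 ± 0.12 (SE, FDR = 0.00011). Mrpl28, with a bacterial counterpart, had the same fold change, -0.58 ± 0.13 (SE, FDR = 0.00024), and went from a median of 106 TPM (83.5 to 117) to one of 68.7 TPM (47.1 to 104). Its 28 months-old libraries were more spread out than those of 8 months, with SDs of 19.7 and 10.3 TPM.

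Mrpl34, one of the smallest proteins of the bacterial core, had 40.0 to 67.9 TPM (median 48.1) at 8 months and 26.7 to 50 TPM (median 30.9) at 28 months, with a log2 fold change of -0.56 ± 0.14 (SE, FDR = 0.00062). Mrpl12, the stalk protein that is also known to bind mitochondrial RNA polymerase, went from 156 to 247 TPM (median 213) to 109.9 to 222 TPM (median 152), with a log2 fold change of -0.56 ± 0.14 (SE, FDR = 0.00089). In both genes the upper end of the 28 months-old range reached into that of 8 months. Mrpl42, with no bacterial counterpart, was the most abundant member at a mean of 364 TPM over all libraries. Its level was 352 to 597 TPM (median 413) at 8 months, 259.7 to 363 TPM (median 332) at 26 months and 264 to 369 TPM (median 294) at 28 months. Mrpl42 was lower already at 26 months, by -0.44 ± 0.09 (log2 fold change, SE, FDR = 0.00057), and at 28 months by -0.55 ± 0.09 (FDR = 6.7e-06). Without replicate 3 of the 8 months-old group, the highest for Mrpl42 and Mrpl34, the 8 months-old values reached 458 TPM for Mrpl42 and 51.4 TPM for Mrpl34, and the log2 fold changes at 28 months were -0.44 (FDR = 4.2e-05) and -0.45 (FDR = 0.0045).

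The next most abundant large subunit gene, Mrpl30, did not pass the test, with 198 to 281 TPM at 8 and 192 to 228 TPM at 28 months and a log2 fold change of -0.20 ± 0.07 (SE, FDR = 0.020). Among the large subunit genes that did pass, the smallest changes were those of Mrpl10 (-0.32), Mrpl39 (-0.31), Mrpl49 (-0.30), Mrpl37 (-0.30) and Mrpl17 (-0.26). Mrpl39, Mrpl49 and Mrpl17 did not pass when replicate 3 of the 8 months-old group was left out, and neither did Mrpl39 and Mrpl49 without replicate 2 of the 28 months-old group. Mrpl49 missed the threshold in 4 of the 17 fits that left out 1 library of 8 or 28 months. The least abundant large subunit genes, Mrpl57 and Mrpl19, with means of 11.6 and 11.8 TPM over all libraries, were lower by -0.48 ± 0.12 (FDR = 0.00053) and -0.37 ± 0.10 (FDR = 0.0017). Mrpl58, a peptidyl-tRNA hydrolase built into the large subunit and also known as a release factor for stalled ribosomes, went from a median of 42.2 TPM (38.1 to 45.9) to one of 32.0 TPM (29.1 to 40.6), with a log2 fold change of -0.41 ± 0.10 (SE, FDR = 0.00048).

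Among small subunit genes Mrps16, a core protein with a bacterial counterpart, had the lowest fold change of all 78 members. Its level was 20.1 to 32.3 TPM (median 24.9) at 8 months, 15.0 to 23.6 TPM (median 17.9) at 26 months and 14.0 to 20.0 TPM (median 15.7) at 28 months. Every 28 months-old library lay below every 8 months-old library, and the log2 fold change was -0.71 ± 0.11 (SE, FDR = 1.6e-06), a level of 61.2% of that at 8 months. Mrps36 showed the same separation, with 100.2 to 155 TPM (median 108) at 8 months and 50.9 to 97.4 TPM (median 73.9) at 28 months and a log2 fold change of -0.69 ± 0.11 (SE, FDR = 1.5e-06). Only 1 other member, Mrpl55, with no bacterial counterpart, had non-overlapping groups, 60.4 to 95.5 TPM at 8 and 41.6 to 59.5 TPM at 28 months. These 3 members make 3 of 78 with all 28 months-old libraries below all 8 months-old ones, against 1.85% of all genes tested, and 0 of 78 had the reverse, against 1.95%. Leaving out replicate 3 of the 8 months-old group, which gave the highest 8 months-old value of each, cannot undo this separation. Without that library the highest 8 months-old values were 27.2 TPM for Mrps16, 117 TPM for Mrps36 and 69.3 TPM for Mrpl55. The log2 fold changes were then -0.62, -0.58 and -0.42.

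Mrps11 (-0.53 ± 0.11, FDR = 0.00012), Mrps28 (-0.53 ± 0.11, FDR = 0.00017) and Mrps12 (-0.52 ± 0.12, FDR = 0.00021) were the next lowest (log2 fold change, SE). Mrps12, whose protein lies at the decoding centre, went from 50.4 to 79.9 TPM (median 60.9) to 34.9 to 66.8 TPM (median 44.2), with overlap between the groups. The smallest changes that passed among small subunit genes were those of Mrps15 (-0.33), Mrps25 (-0.33), Mrps34 (-0.29), Mrps18a (-0.29) and Mrps23 (-0.23), the last 3 of which did not pass without replicate 3 of the 8 months-old group. Mrps34 missed the threshold in 6 of the 17 fits that left out 1 library of 8 or 28 months. Mrps21, the most abundant small subunit gene, had 232 to 321 TPM (median 274) at 8 months and 188 to 261 TPM (median 218) at 28 months and missed the threshold, with a log2 fold change of -0.32 ± 0.11 (SE, FDR = 0.011). In 1 library of 18 months it reached 544 TPM, against 321 TPM in the next. The 16 small subunit genes called lower include Mrps6, which shares 159 exonic bases on the same strand with Slc5a3, so its value is uncertain.

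The Mrps18 genes encode 3 related proteins, of which 1, Mrps18a, passed the test at 28 months. That call was lost without replicate 3 of the 8 months-old group (log2 fold change -0.23, FDR = 0.011). Mrps18a was lower, 119.9 to 151 TPM (median 125) at 8 and 96.9 to 122 TPM (median 109) at 28 months, with a log2 fold change of -0.29 ± 0.08 (SE, FDR = 0.0019). Mrps18c had a log2 fold change of -0.39 ± 0.14 (SE, FDR = 0.014) and Mrps18b one of 0.07 ± 0.08 (SE, FDR = 0.44), neither past the threshold. Mrps18b ran from 74.2 to 91.7 TPM (median 75.7) at 8 months and from 69.6 to 125 TPM (median 84.8) at 28 months. The difference between the paralogs was not tested. The least abundant small subunit genes, Mrps2 (-0.03 ± 0.08, FDR = 0.76) and Mrps30 (-0.02 ± 0.09, FDR = 0.83), did not pass either (log2 fold change, SE).

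**Figure D4:**
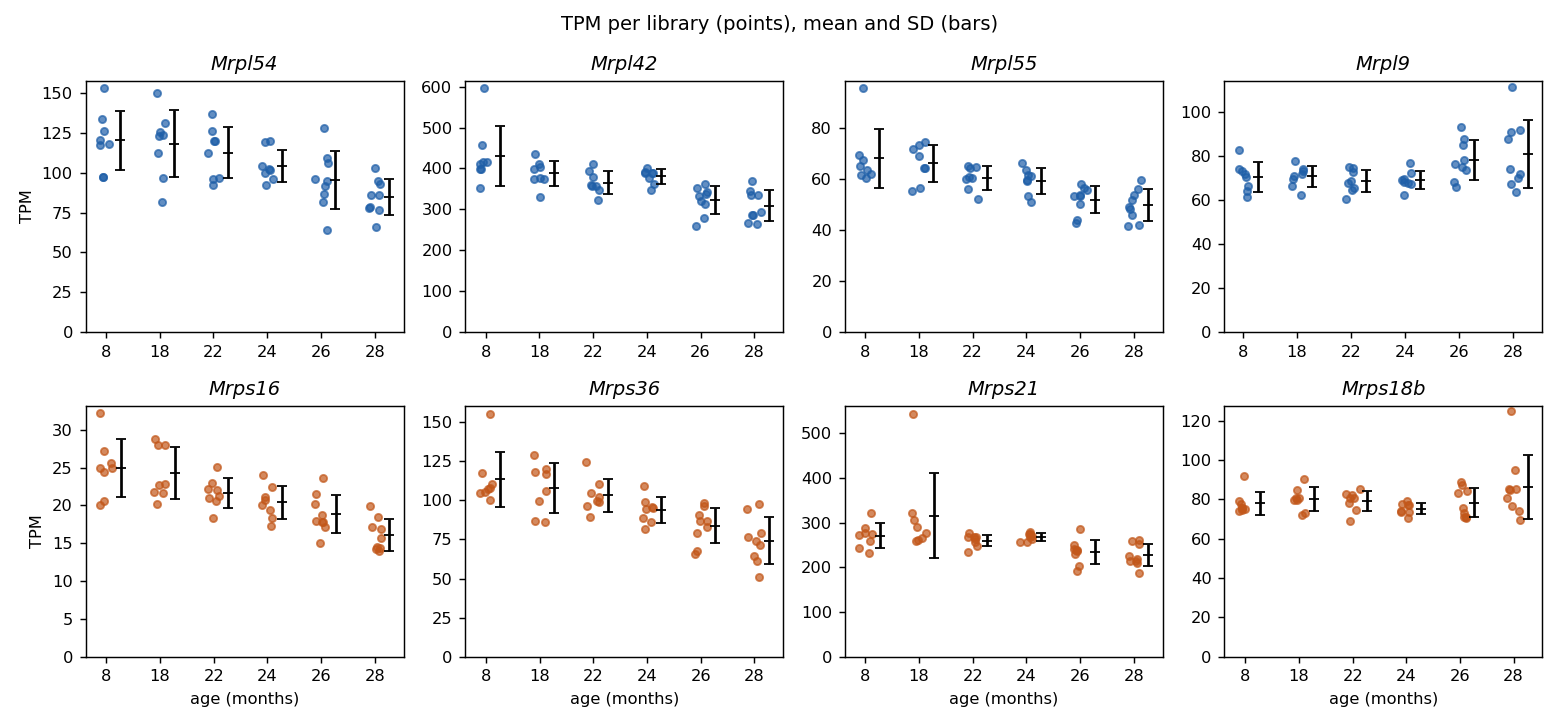
TPM per library (vertical axes, starting at 0) by age in months (horizontal axes) for 4 large subunit genes (top, blue) and 4 small subunit genes (bottom, orange), with the mean and SD beside the points. Mrps16 and Mrps36 show no overlap between 8 and 28 months, whereas Mrpl9 and Mrps18b do not go down and spread out at 28 months, where Mrps18b reached 125 TPM in 1 library.

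Genes lower at 28 months were found among proteins with and without a bacterial counterpart. Of the large subunit genes, 17 of 29 with a bacterial counterpart and 12 of 20 particular to mitochondria were lower at 28 months, both with a median log2 fold change of -0.32. Of the small subunit genes, 8 of 15 with a bacterial counterpart (median -0.36) and 6 of 11 particular to mitochondria (median -0.23) were lower. By place in the large subunit, 5 of 6 genes of the central protuberance were lower (Mrpl18, Mrpl27, Mrpl40, Mrpl46 and Mrpl48, median -0.44), 3 of 5 of the stalk (Mrpl10, Mrpl12 and Mrpl54, median -0.32) and 2 of 6 around the peptide exit (Mrpl17 and Mrpl22, median -0.25). In the central protuberance, Mrpl48 was lower by -0.54 ± 0.10 (log2 fold change, SE, FDR = 2.3e-05), and Mrpl38 was at -0.08 ± 0.08 (FDR = 0.37). Mrpl27 missed the threshold in 11 of the 17 fits that left out 1 library of 8 or 28 months. Of all genes tested, 18.7% were lower. With replicate 3 of the 8 months-old group left out (16.7% of all genes lower), the counts were 14 of 29 and 10 of 20 for the large and 8 of 15 and 4 of 11 for the small subunit, 4 of 6 for the central protuberance, where Mrpl27 was lost, 3 of 5 for the stalk and 1 of 6 around the peptide exit, where Mrpl17 was lost. These lists are short, and no difference between them was tested.

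Members went up and down together from mouse to mouse of the same age. After the mean of each age was removed, the median Pearson correlation over pairs of genes across the 50 libraries was 0.469 for pairs of large subunit genes, 0.450 for pairs of small subunit genes and 0.471 for 1 gene of each, against 0.126 for pairs of all genes tested. The genes least tied to the other members were Mrps2 (0.0844), Mrps18b (0.1003) and Mrpl9 (0.293), measured as the correlation of each gene with the mean of the other members within ages. All points share libraries and their normalisation, and the values are descriptions.

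Across genes, which are not independent replicates, the log2 fold change at 28 months had a Spearman correlation of 0.263 with transcript length and -0.195 with GC content over the 78 members, close to the 0.231 and -0.139 over the 11829 genes tested that had a value. Members' transcripts were short, with a median of 1148 bases against 2379 bases. With the mean TPM the correlation was -0.236 over members and -0.009 over all genes tested.

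The nuclear-encoded genes around the mitoribosome are described by the same test at 28 months, in which 18.7% of all genes were lower and 39.6% were called in either direction. Of 5 mitoribosomal proteins with other symbols, 2 were lower, Ptcd3 (-0.30) and Aurkaip1 (-0.29), and the list's median log2 fold change was -0.29; with replicate 3 of the 8 months-old group left out 1 of the 5 was lower. Of 24 genes for mitoribosome assembly and rRNA modification, 6 were lower (25%, against 18.7% of all genes) and 1 was higher, with a median of -0.12, and 5 were lower (20.8%, against 16.7%) without replicate 3 of the 8 months-old group. The lowest were the rRNA methyltransferases Mrm1, from 7.30 ± 1.08 to 4.24 ± 1.24 TPM (log2 fold change -0.83), and Mrm2, from 8.54 ± 0.83 to 5.41 ± 1.996 TPM (-0.72; SD, n = 8 and n = 9). Of 15 mitochondrial translation factors 7 were lower and 0 higher (46.7%, median -0.22), 5 (33.3%) without replicate 3 of the 8 months-old group, led by Taco1, a translational activator of a cytochrome c oxidase subunit, from 54.7 ± 6.57 to 35.5 ± 10.4 TPM (-0.68), and the release factor Mtrf1l (-0.51). Of 16 mitochondrial aminoacyl-tRNA synthetases 2 were lower, Hars2 (-0.41) and Cars2 (-0.35), with a list median of -0.14, and this share of 12.5% was under the 18.7% of all genes.

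Of 11 genes for mitochondrial transcription and DNA maintenance, 4 were lower (36.4%, against 18.7% of all genes) and 1 was higher. With replicate 3 of the 8 months-old group left out 3 were lower (27.3%, against 16.7%) and 1 was higher. The named genes are Mterf2 at -0.65 and Polg2, an accessory subunit of mitochondrial DNA polymerase, at 0.49. Of 10 nuclear regulators of mitochondrial genes 1 was lower (10%, against 18.7%) and 4 were higher (40%, against 21%). Esrra, an estrogen-related receptor that drives genes of oxidative metabolism, fell from 103 ± 9.52 to 65.3 ± 25.6 TPM (log2 fold change -0.71), while Myc rose from 5.44 ± 1.01 to 17.8 ± 10.01 TPM (1.65; SD, n = 8 and n = 9). For the factors whose letters were searched in the promoters, and named for that reason after their values were seen, Nrf1 was higher (0.39 ± 0.08, FDR = 0.00011) and so was Gabpa, the DNA-binding part of GABP (0.34 ± 0.09, FDR = 0.0018), while Yy1 did not pass (0.21 ± 0.10, FDR = 0.070; log2 fold change, SE). The part of these regulators in the members' change was not tested.

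Other large complexes are set beside the members, with 18.7% of all genes lower and 21% higher as the background. Complex I, the NADH dehydrogenase of the respiratory chain, was taken by symbol, as Nduf followed by a, b, c, s or v and a number. Membership in the complex was not checked gene by gene. Of the 36 genes so listed, 31 were lower at 28 months (86.1%) and 0 higher, with a median log2 fold change of -0.53. Without replicate 3 of the 8 months-old group 26 were lower and the median was -0.43. Ndufc1 went from 437 ± 72.7 to 269 ± 47.5 TPM (-0.76) and Ndufs4 from 214 ± 33.8 to 139 ± 23.3 TPM (-0.70; SD, n = 8 and n = 9). Of 80 cytosolic ribosomal protein genes 1 was lower (1.25%) and 5 were higher (6.25%), both under the background, with a median of 0.08. Without that library 1 was lower and 10 were higher, with a median of 0.14, again under the 16.7% and 19.5% of all genes in that fit. Rpl3 rose from 99.8 ± 11.9 to 181 ± 46.4 TPM (0.78) and Rps4x from 583 ± 55.5 to 849 ± 135 TPM (0.47). The score per library went from 0.18 ± 0.17 to -0.24 ± 0.24 for complex I and from -0.08 ± 0.17 to 0.10 ± 0.14 for the cytosolic ribosome. The 8 months-old means without that library were 0.13 ± 0.10 and -0.11 ± 0.15. The differences between these lists were not tested.

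**Figure D5:**
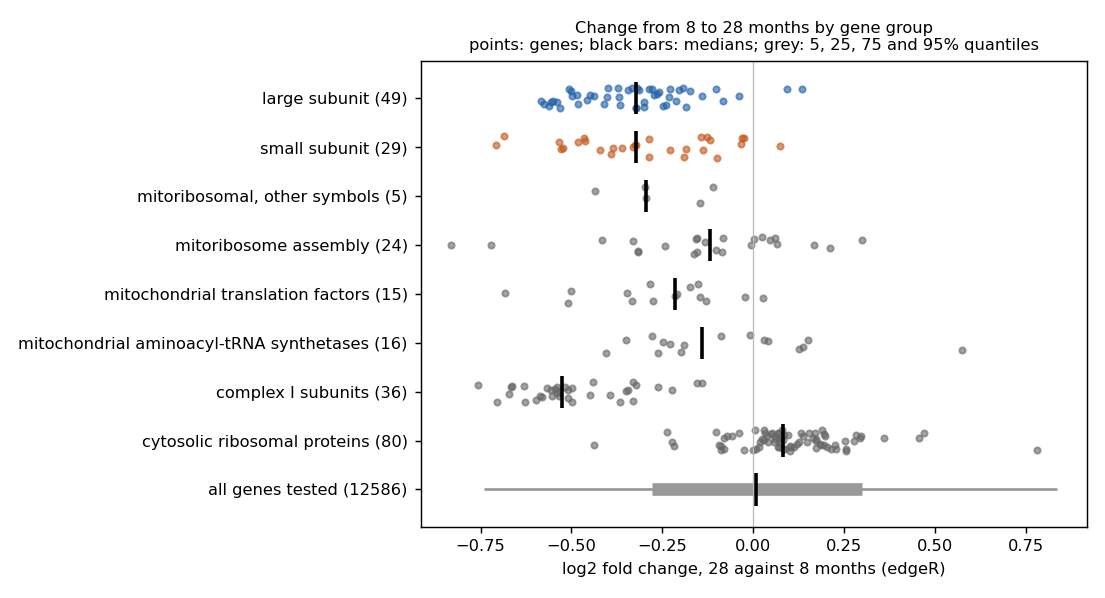
Log2 fold change at 28 against 8 months (horizontal axis) of single genes (points) in 8 gene lists (vertical axis, number of genes in brackets), with black bars for medians; the grey bars of the last line span the 5, 25, 75 and 95% quantiles of all 12586 genes tested. The medians are -0.32 for both subunits, -0.53 for complex I, 0.08 for cytosolic ribosomal proteins and 0.01 for all genes.

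Markers of other cells were tested over the same ages, with 21% of all genes higher and 18.7% lower at 28 months as the background. Of 9 macrophage markers 6 were higher at 28 months and 0 lower, with a sum of 248 TPM (184 to 323 between libraries) at 8 and 415 TPM (287 to 774) at 28 months and Lyz2 the most abundant. Of 6 fibroblast markers 4 were lower, with a sum of 981 TPM (766 to 1113) at 8 and 712 TPM (619 to 834) at 28 months, of which the proteoglycan gene Dcn gave most. Of 6 adipocyte markers 4 were lower, with a sum of 516 TPM (420.1 to 674) and then 415 TPM (303 to 704), most of it Fabp4. The median log2 fold changes of the fibroblast and adipocyte lists were -1.66 and -1.37. Among 7 slow fibre markers 0 passed, with sums of 1594 TPM (455 to 2715) and 2358 TPM (897 to 4205), led by Myl2. Of 5 erythroid markers 1 was higher (2029 TPM, 899.7 to 3293, then 3317 TPM, 587 to 6297, mostly Hbb-bs), and of 5 endothelial markers 1 was lower (106 TPM, 83.0 to 142, then 109 TPM, 96.6 to 152, led by Pecam1). Of 5 Schwann cell markers 0 passed (197 TPM, 85.2 to 339, then 141 TPM, 97.8 to 271, led by Pmp22), of 3 satellite cell markers 1 was higher (10.4 TPM, 9.65 to 11.7, then 15.5 TPM, 10.6 to 19.9, mostly Cdh15), and the 7 lymphocyte markers summed to 0.692 TPM and 1.43 TPM, near 0, and were not abundant enough to be tested. Of the 9 fibre markers 3 were higher and 1, Pvalb, was lower. Without replicate 3 of the 8 months-old group 1 Schwann cell marker was lower and 2 of the fibre markers were higher, and the other counts were unchanged. The 8 months-old sums then moved most, relative to their size, for the slow fibre (1434 TPM) and Schwann cell markers (213 TPM). The part of these cells in the members' change was not tested.

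The count at 28 months also moved with other libraries. Without replicate 2 of the 28 months-old group 41 were lower at 28 months. Leaving out each library of 8 or 28 months in turn gave 37 to 55 members lower at 28 months, and none of the 45 changed its sign.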

How the data were processed

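PolyA RNA of gastrocnemius muscle from 50 mice was sequenced as stranded, paired-end libraries. The authors trimmed reads with Cutadapt 1.9.1 and assigned them to protein-coding transcripts of GRCm38 with kallisto 0.43.1, per the submitters' processing notes and the study's methods. They deposited counts per gene, whole numbers summing to 13607229 to 21267375 per library, and TPM values per gene. Per the study's methods, a read that fitted several transcripts was divided equally among them, and transcripts were summed per gene. Without molecular identifiers the reads are not independent molecules.

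Groups were the 6 ages of the labels. The deposited counts were tested in R 4.3.3 with edgeR 4.0.16 (quasi-likelihood test, TMM factors, 1 fit over all ages) on genes with 1 CPM or more in 8 or more libraries, with Benjamini-Hochberg adjustment over all genes and an FDR of 0.01. Nothing in the labels says that libraries of a group share more than age, and no pair of libraries agreed within counting noise (smallest ratio of variance to counting variance 6.96). Scores used the deposited TPM as log2(TPM + 1), a pseudocount of 1. The members and lists were chosen with earlier results of these data known. Per subunit, genes were named by rule: the 5 lowest and 5 highest fold changes among those called and the 3 most and 2 least abundant. The Mrps18 paralogs, Mrps30, Mrps36, Mrpl12 and Mrpl58 were named as well. For each other list the 2 called genes with the greatest change were named, and for cell markers the most abundant gene. Gene positions and overlaps came from GENCODE vM21 (GRCm38), another release than the authors', and promoters from RefSeq (GRCm38.p6). Alternatives were DESeq2 1.42.0, limma 3.58.1 on log2(TPM + 1), other scaling factors, no filter, an FDR of 0.05, only the 2 ages compared, a replicate block and left-out libraries. The test was tried on simulated data first. Ddx28, Mars2 and Cldn5 and genes of mitochondrial DNA were not analysed here.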

Additional observations from a re-analysis of the deposited data

Results flagged for a closer look

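Within groups of 4 to 10 libraries, a value was singled out when its gap to the nearest other library was too great a share of the group's range (Dixon's 95% critical value). Chance alone marks about 1 in 20 groups, and 20 of 228 groups were marked here.

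Replicate 3 of the 8 months-old group was the highest library for 11 of these. Among them were the small subunit score (0.383, next 0.133) and the summed small subunit TPM (2218, next 1879). It was also the highest for Mrpl30 (281 TPM), Mrpl34 (67.9), Mrpl39 (27), Mrpl42 (597), Mrpl55 (95.5), Mrps15 (100), Mrps18a (151), Mrps18b (91.7) and Mrps36 (155 TPM). Its large subunit score, 0.379, did not pass the criterion. The complex I score of the same library was 0.55, against a mean of 0.13 in the other 7. The cause was not tested.

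Replicate 5 of the 22 months-old group was the highest of its age for Mrpl10 (46.1 TPM, next 38.7) and Mrpl19 (17.0, next 12.9), and replicate 3 of the 28 months-old group for Mrpl37 (90.2, next 75.8) and Mrps12 (66.8, next 49.8). Replicate 2 of the 28 months-old group had 125 TPM of Mrps18b (next 95.2), and replicate 3 of the 24 months-old group 62.0 TPM of Mrpl17 (next 54.1). Replicate 8 of the 18 months-old group had 544 TPM of Mrps21 (next 321). Low values were found for Mrps12 in replicate 1 of the 22 months-old group (46.5 TPM, next 62.9) and the difference between large and small subunit scores in replicate 2 of that group (-0.0478, next -0.00806).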

How the results depend on the processing

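The count of 45 members lower at 28 months stayed within 1.5 times under each alternative run, from 33 with only the libraries of 8 and 28 months to 61 at an FDR of 0.05, with 0 members higher. DESeq2 gave 46, limma on log2(TPM + 1) 39 and upper-quartile factors 57. The smaller counts depended more on the setting. At an FDR of 0.05, 35 members (22 large, 13 small) were lower at 26 months and 40 (26 large, 14 small) for 28 against 22 months. Upper-quartile factors gave 37 (24 large, 13 small) for 28 against 22 months, whereas 14 (8 large, 6 small) were lower with no filter on low genes and also with only the 2 ages, and 13 (8 large, 5 small) without replicate 2 of the 28 months-old group. For 26 against 8 months, 9 (6 large) were lower without a filter on low genes, 7 (4 large) with only the 2 ages, and 5 (4 large, 1 small) without replicate 3 of the 8 months-old group, an alternative chosen after seeing the data; limma gave 7 small subunit genes. Without replicate 2 of the 28 months-old group the count at 26 months was 15 (11 large). Leaving out each library in turn gave 37 to 55 members lower at 28 months, 24 to 36 of the large and 13 to 19 of the small subunit. The scores, sums and ratios moved by less than 1 SD under every alternative run. The fold changes of Mrps30 and Mrps2, near zero, turned positive with limma (0.0498 and 0.0371). They were -0.0691 and -0.0614 without replicate 2 of the 28 months-old group. Without replicate 3 of the 8 months-old group they were 0.0631 and 0.0216. Their values with other libraries left out are not given, and no call rested on them. No scaling moved the median of all genes by over 0.1. The ages share replicate numbers, but nothing in the labels pairs the mice. Libraries of the same number and different age had a median correlation of 0.0623 over 121 pairs, 52 of them over 0.1. For different numbers the median was -0.00679 over 920 pairs, 245 of them over 0.1. With a replicate block 44 members were lower at 28 months, 13 at 26 months and 20 for 28 against 22 months. Genes with low counts carry wider errors, and SEs of the members' log2 fold changes ran from 0.0576 to 0.139, and the smallest change that passed at 28 months was -0.23.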
